A study of Homo sapiens with 4 samples.

Results

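The replication-dependent histone genes encode the linker histone H1 and the core histones H2A, H2B, H3 and H4. Protein-coding rows of the count table with a symbol beginning HIST1H, HIST2H, HIST3H or HIST4H were taken as these genes, which gave 71 of 58735 genes. Of the 71 genes, 6 encode H1, 17 H2A, 18 H2B, 15 H3 and 15 H4. They were read in shGREM1 cells against shControl cells, 2 libraries each.

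Core histones form the protein spool around which DNA is wrapped, and H1 binds the linker DNA where it enters and leaves that spool. In most dividing cells the genes of these proteins are transcribed in S phase, when new chromatin is assembled. Their messenger RNAs usually lack introns and end in a stem-loop instead of a poly(A) tail. The stem-loop is bound by SLBP, and several of these genes are also known to give polyadenylated transcripts.

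Both groups are U2OS cells, which are a long-established line from a human osteosarcoma: shGREM1 cells carry a knockdown of GREM1, and shControl cells are their control. GREM1 codes for gremlin 1, which is secreted and binds bone morphogenetic proteins. The labels give no knockdown sequence, time or clone and no word on separate cultures within a group, so each p-value reflects the spread between 2 libraries that may be technical replicates. Total RNA was the input to a kit named for mRNA, and no selection of poly(A) RNA is stated.

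The libraries held 16353015 and 15968817 counts in shGREM1 cells, against 15676556 and 15492826 counts in shControl cells. GREM1 itself had 1 and 1 counts in shGREM1 cells and 2 and 0 counts in shControl cells, so the knockdown could not be checked, and the differences below are those between libraries with these labels. The 6 mesenchymal and osteoblastic markers examined, all kept by the count filter, summed to 2800 and 2630 CPM, that is counts scaled to library size, in shGREM1 cells and 2090 and 2020 CPM in shControl cells, led by SPARC with 1365 and 1128 CPM in shGREM1 cells and 869 and 876 CPM in shControl cells. SPARC (log2 difference 0.51, edgeR adjusted p = 0.0155) and COL1A1 (0.50, adjusted p = 0.0172) rose, VIM and RUNX2 overlapped between groups, and COL1A2 was at 1.22 CPM or less in every library. ALPL went the other way without passing, with 3.90 and 7.34 CPM in shGREM1 cells and 13.5 and 8.68 CPM in shControl cells (-0.98, adjusted p = 0.0888). Of the leukocyte markers, PTPRC reached at most 0.61 CPM in a library and CD3E at most 0.13 CPM. The 3 epithelial markers, of which 2 were kept, summed to 13.7 and 12.7 CPM in shGREM1 cells and 6.80 and 8.42 CPM in shControl cells. Of these EPCAM had 11.3 and 10.9 CPM in shGREM1 cells against 5.18 and 6.03 CPM in shControl cells, a log2 difference of 0.99 ± 0.22 (SE; edgeR adjusted p = 0.0123). KRT19, which the filter removed, ran the other way, with 0 and 0.373 CPM in shGREM1 cells and 0.518 and 1.17 CPM in shControl cells. The 2 endothelial markers summed to 7.56 and 11.0 CPM in shGREM1 cells and 8.87 and 12.9 CPM in shControl cells. The part of such markers in the histone results was not tested.

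Many histone genes of the table are short and nearly bare of transcript ends, which bears on what their counts can hold. GENCODE 29 gives 34 of the 71 genes as coding sequence only, with a median length of 393 bases. Another 14 genes have untranslated sequence but no poly(A) signal (AATAAA or ATTAAA) within 40 bases of a transcript end, with a median length of 617 bases. The other 23 genes have such a signal at an annotated end, with a median length of 1668 bases. Counts per gene do not tell stem-loop ends from polyadenylated ends.

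The histone stem-loop was searched as a 16-base pattern of a stem and a 4-base loop in the annotated transcripts, and it was found in those of 32 genes. It took 6 forms, shown here because they are the end that sets this family apart from other messenger RNAs. Capitals mark the bases of the stem, lower case marks the loop, and letters are written as DNA on the strand of the gene.
17 genes of H2A, H2B and H3: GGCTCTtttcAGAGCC
5 genes of H2B and H3: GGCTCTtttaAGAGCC
5 genes of H4: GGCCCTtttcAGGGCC
3 genes of H4: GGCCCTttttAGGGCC
HIST1H3E: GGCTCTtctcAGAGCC
HIST1H2AG: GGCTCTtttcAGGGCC
All 8 H4 genes with the pattern had the stem that begins GGCCCT, and the other 24 genes had the stem that begins GGCTCT. In HIST1H2AG the first arm is that of the H2A, H2B and H3 genes and the second is that of the H4 genes. The pattern lay well inside the annotated transcript in some well-counted genes: 1761 bases followed it in HIST1H2AG, 1729 in HIST2H2BE and 1655 in HIST1H4H, but 39 in HIST1H2BD. Absence of the pattern in the other 39 genes says only that their annotated transcripts do not hold it, and most of those transcripts stop at the coding sequence.

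Promoters of 62 of the 71 genes were matched in RefSeq (GRCh38.p14), from 250 bases before to 50 bases after the start. The letters TATAAA stood in 41 of them (66.13%), against 11.53% of all 35116 RefSeq promoters. The letters CCAAT stood in 52 (83.87%), against 34.61% of all promoters. An octamer, ATTTGCAT, which is known to be bound by POU2F1, stood in 24 (38.71%), against 1.77% of all promoters. All 3 were searched on both strands. The octamer was found in 11 of 16 H2A and 13 of 16 H2B promoters and in 0 of the 6 H1, 11 H3 and 13 H4 promoters. CCAAT was found in every H1, H2A, H2B and H3 promoter and in 3 of 13 H4 promoters.

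Promoters of 3 genes whose RNA rose in shGREM1 cells are shown for their contrast in these motifs. HIST1H2AG (chr6:27132793-27133092, plus strand) faces HIST1H2BJ, whose RNA also rose, and its window takes in most of that gene's promoter. HIST1H1C (chr6:26056421-26056720, minus strand) holds a CCAAT match alone. HIST1H4H (chr6:26285485-26285784, minus strand) holds none of the 3 motifs. Capitals mark matches on either strand.
HIST1H2AG: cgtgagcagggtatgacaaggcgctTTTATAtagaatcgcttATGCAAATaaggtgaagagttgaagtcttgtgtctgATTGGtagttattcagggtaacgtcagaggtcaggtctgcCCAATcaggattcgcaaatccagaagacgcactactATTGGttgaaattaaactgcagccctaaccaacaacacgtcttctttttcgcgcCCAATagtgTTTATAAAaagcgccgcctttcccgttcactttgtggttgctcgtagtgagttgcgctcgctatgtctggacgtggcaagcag
HIST1H1C: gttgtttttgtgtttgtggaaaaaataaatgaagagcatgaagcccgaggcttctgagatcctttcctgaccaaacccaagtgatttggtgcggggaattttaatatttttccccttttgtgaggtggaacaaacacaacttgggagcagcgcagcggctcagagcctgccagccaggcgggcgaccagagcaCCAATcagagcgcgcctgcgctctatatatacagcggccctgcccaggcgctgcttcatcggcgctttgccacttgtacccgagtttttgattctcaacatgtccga
HIST1H4H: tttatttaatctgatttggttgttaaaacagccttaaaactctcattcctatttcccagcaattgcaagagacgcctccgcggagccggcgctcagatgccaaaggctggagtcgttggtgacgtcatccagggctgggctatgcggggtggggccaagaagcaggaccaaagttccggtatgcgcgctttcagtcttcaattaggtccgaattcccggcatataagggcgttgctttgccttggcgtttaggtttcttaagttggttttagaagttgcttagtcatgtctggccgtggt
By call, TATAAA stood in 5 of the 8 matched promoters of genes that rose, in 11 of the 15 of kept genes that did not pass, and in 25 of the 39 of genes that were not kept. CCAAT stood in 6, 10 and 36 of the same sets and the octamer in 3, 5 and 16. These are counts of letters, with no test, and a match is not shown to be a site.

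In shGREM1 cells 10 histone genes rose and 0 fell, and the other 16 of 26 tested did not pass. Genes were tested with edgeR's quasi-likelihood test after a count filter that asks for about 10 counts in 2 libraries. Those below 0.05 after Benjamini-Hochberg adjustment across 18442 tested genes are described as having risen or fallen. By that rule 3.57% of all tested genes rose and 4.12% fell. The genes that rose were HIST1H1C, HIST1H2AG, HIST1H2BD, HIST1H2BJ, HIST1H2BK, HIST2H2BE, HIST1H3H, HIST1H4H, HIST1H4I and HIST4H4. Their differences ran from 0.40 to 0.99 on the log2 scale, that is from 1.32-fold to 1.99-fold. At an unadjusted p under 0.05, edgeR counted 13 histone genes higher and 0 lower, against 11.1% of all tested genes higher and 12.1% lower at that threshold, and the count of genes that fell was also 0 with DESeq2 and with limma-voom.

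Over the 26 tested genes the median log2 difference was 0.63, with a range from -0.51 to 1.28, against a median of 0.00 over all tested genes. It was above 0 in 25 of the 26 genes, or 96.2%, against 50.6% of all tested genes. In 20 of the 26 both shGREM1 libraries lay above both shControl libraries, which 27.0% of all tested genes did. In 1 gene both lay below, as in 26.6% of all tested genes, and in 5 the groups overlapped. A gene can pass the count filter through the group where it is high; here 25 of the 26 were at or above the filter's minimum of 0.633 CPM in both shControl libraries, and the exception was HIST2H4B. In bulk RNA, more transcript per cell and more cells that hold the transcript cannot be told apart.

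**Figure D1:**
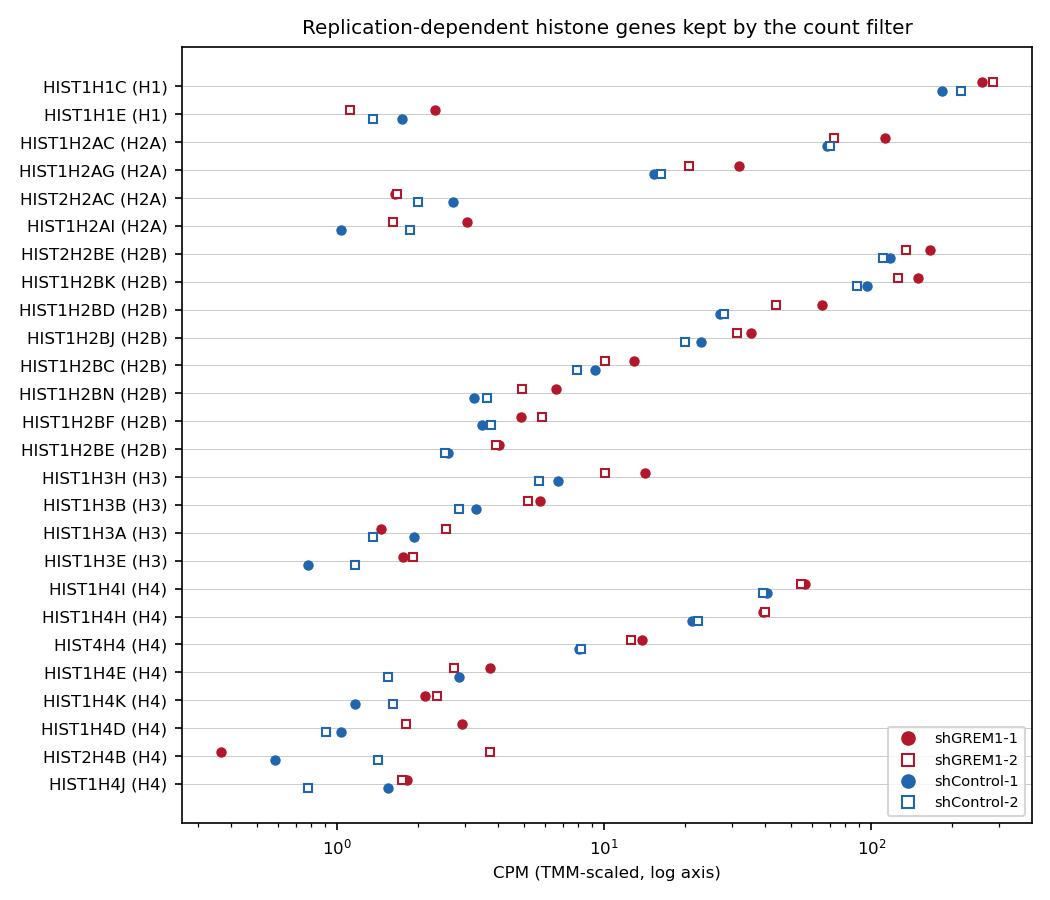
CPM of each of the 26 tested histone genes on a log axis, with shGREM1 libraries in red, drawn above, and shControl libraries in blue. In 20 genes both red points lie to the right of both blue points, and in HIST2H2AC both lie to the left.

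Among the linker histone genes, 1 of 2 tested rose, against 3.57% of all tested genes. HIST1H1C (ENSG00000187837, chromosome 6, 26055787 to 26056428, minus strand, GRCh38), which encodes H1.2, had 259 and 286 CPM in shGREM1 cells, against 183 and 216 CPM in shControl cells. Both shGREM1 libraries were above both shControl libraries. On the log2 scale the difference was 0.45 ± 0.12 (SE; adjusted p = 0.0276 by edgeR), and without shControl-1 it was 0.33, with an adjusted p of 0.33. This was the histone gene of highest count and, at 368 CPM per kb of annotated length over the 4 libraries, also of highest level per length, although only its coding sequence is annotated. HIST1H1E, which encodes H1.4, had 2.32 and 1.12 CPM in shGREM1 cells and 1.75 and 1.36 CPM in shControl cells, so the groups overlapped (log2 difference 0.15 ± 0.47, edgeR adjusted p = 0.897). Of the other H1 genes, HIST1H1B had 5 counts and HIST1H1D 3 counts in shGREM1-1 and none elsewhere, and HIST1H1A and the testis gene HIST1H1T had none.

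Of the H2A genes, 1 of 4 tested rose, against 3.57% of all tested genes. HIST1H2AG (ENSG00000196787, chromosome 6, 27133042 to 27135291, plus strand) had 32.0 and 20.8 CPM in shGREM1 cells, against 15.3 and 16.3 CPM in shControl cells. The groups did not overlap, but shGREM1-2 lay nearer to the shControl libraries than to shGREM1-1. The difference was 0.74 ± 0.19 (edgeR adjusted p = 0.0329), and without shGREM1-1 it was 0.40, with an adjusted p of 0.198. It also missed the threshold without shControl-1 (adjusted p = 0.172) or shControl-2 (adjusted p = 0.0847). HIST1H2AC (ENSG00000180573), the H2A gene of highest count, had 113 and 72.4 CPM in shGREM1 cells and 68.5 and 69.8 CPM in shControl cells. Here shGREM1-1 stood far above the other 3 libraries, and the gene did not pass (0.42 ± 0.20, edgeR adjusted p = 0.259). Without shGREM1-2 it passed, with a difference of 0.70, and without a count filter it passed with a difference of 0.41 (adjusted p = 0.0132).

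The H2A genes also held the only negative difference among the tested histone genes. HIST2H2AC (ENSG00000184260, chromosome 1) had 1.65 and 1.68 CPM in shGREM1 cells, against 2.72 and 2.01 CPM in shControl cells. Both shGREM1 libraries were lower, at between 27 and 42 counts a library, but the gene did not pass (-0.51 ± 0.39, edgeR adjusted p = 0.48). HIST1H2AI, with 3.05 and 1.62 CPM in shGREM1 cells and 1.04 and 1.88 CPM in shControl cells, overlapped between groups (0.68 ± 0.45, adjusted p = 0.406).

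The H2B genes gave the most calls, with 4 of 8 tested genes higher in shGREM1 cells, against 3.57% of all tested genes. In all 8 both shGREM1 libraries lay above both shControl libraries, as in 27.0% of all tested genes. HIST1H2BD (ENSG00000158373, chromosome 6, 26158146 to 26171349, plus strand) had 65.5 and 44.1 CPM in shGREM1 cells, against 27.2 and 27.98 CPM in shControl cells. Its difference of 0.99 ± 0.17 (edgeR adjusted p = 0.0054) was the largest among the 10 genes that rose. HIST1H2BK (ENSG00000197903, chromosome 6, 27146418 to 27146798, minus strand) had 150.1 and 126 CPM in shGREM1 cells, against 96.7 and 88.1 CPM in shControl cells (0.58 ± 0.12, adjusted p = 0.00726). HIST2H2BE (ENSG00000184678, chromosome 1, 149884459 to 149886652, minus strand) had 166 and 135 CPM in shGREM1 cells, against 118 and 111 CPM in shControl cells. With 0.40 ± 0.12 and an adjusted p of 0.0499 it stood at the threshold, and it no longer passed under several alternatives, DESeq2 among them (adjusted p = 0.0555). HIST1H2BJ (ENSG00000124635, chromosome 6, 27125897 to 27132750, minus strand) had 35.4 and 31.5 CPM in shGREM1 cells, against 23.1 and 20.1 CPM in shControl cells (0.63 ± 0.14, adjusted p = 0.0144). In all 4 of these genes shGREM1-1 was above shGREM1-2, and in CPM the shControl libraries lay closer together.

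With 1 library left out, some calls among these H2B genes were lost. Such a fit takes its spread from the other group alone, and without a shControl library calls over all genes also became fewer. Without shControl-1 the adjusted p was 0.0557 for HIST1H2BD and 0.134 for HIST2H2BE. Without shControl-2 it was 0.0525 for HIST1H2BK, 0.109 for HIST1H2BJ and 0.231 for HIST2H2BE. Without shGREM1-1 the difference of HIST2H2BE was 0.25, with an adjusted p of 0.243.

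The 4 H2B genes that did not pass had positive differences of like size but lower counts. They were HIST1H2BC (0.42), HIST1H2BF (0.56), HIST1H2BE (0.63) and HIST1H2BN (0.74), and their edgeR adjusted p ran from 0.126 for HIST1H2BN to 0.245 for HIST1H2BC. Of these HIST1H2BC had the highest level, with 12.9 and 10.1 CPM in shGREM1 cells and 9.26 and 7.90 CPM in shControl cells. The counts of HIST1H2BK may include reads of a near copy, since 28.4% of its 100-base windows also occur in H2BFS.

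Of the H3 genes, 1 of 4 tested rose, against 3.57% of all tested genes, and the class was low throughout. HIST1H3H (ENSG00000278828, chromosome 6, 27810064 to 27811300, plus strand) had 14.2 and 10.1 CPM in shGREM1 cells, against 6.74 and 5.70 CPM in shControl cells. All of the shGREM1 values were higher, and the difference was 0.97 ± 0.23 (edgeR adjusted p = 0.0183). It missed the threshold without shControl-2 (adjusted p = 0.0954) or shGREM1-1 (adjusted p = 0.0856). HIST1H3B had 5.73 and 5.16 CPM in shGREM1 cells, against 3.30 and 2.85 CPM in shControl cells, without overlap, but did not pass (0.82 ± 0.28, adjusted p = 0.0927). HIST1H3E (0.92 ± 0.46, adjusted p = 0.252) was also without overlap, and in HIST1H3A (0.28 ± 0.43, adjusted p = 0.76) the groups overlapped.

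Of the H4 genes, 3 of 8 tested rose, against 3.57% of all tested genes. HIST1H4H (ENSG00000158406, chromosome 6, 26277609 to 26285638, minus strand) had 39.2 and 40.04 CPM in shGREM1 cells, against 21.4 and 22.5 CPM in shControl cells. Replicates of this gene lay close together and the groups far apart, and its difference of 0.85 ± 0.13 had the lowest adjusted p of all histone genes (edgeR, 0.00114). HIST1H4I (ENSG00000276180, chromosome 6, 27138588 to 27139881, plus strand) had 56.6 and 54.5 CPM in shGREM1 cells, against 40.6 and 39.1 CPM in shControl cells (0.48 ± 0.12, adjusted p = 0.02). HIST4H4 (ENSG00000197837, chromosome 12, 14767999 to 14771131, minus strand), which lies alone, had 13.8 and 12.6 CPM in shGREM1 cells, against 8.03 and 8.16 CPM in shControl cells (0.71 ± 0.19, adjusted p = 0.0373; with DESeq2 0.0784). In all 3 the groups were apart by more than the replicates of either group. Without shControl-1 HIST1H4I had an adjusted p of 0.085 and HIST4H4 of 0.178, without shControl-2 these were 0.116 and 0.137, and without shGREM1-1 HIST4H4 had 0.0755. HIST1H4H passed in each of these fits.

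The 5 H4 genes that did not pass were at under 4 CPM in every library. HIST1H4D had 2.93 and 1.80 CPM in shGREM1 cells, against 1.04 and 0.907 CPM in shControl cells, which is the largest difference of the 26 genes but missed the threshold (1.28 ± 0.45, edgeR adjusted p = 0.101; without shGREM1-2 it passed, at 1.58). HIST1H4K (0.69), HIST1H4J (0.61) and HIST1H4E (0.55) had adjusted p of 0.346, 0.481 and 0.415. HIST2H4B had 0.366 and 3.73 CPM in shGREM1 cells and 0.583 and 1.43 CPM in shControl cells, so that the shGREM1 libraries held both its lowest and its highest value (1.02 ± 1.12, adjusted p = 0.664; without shGREM1-1 it was 1.89 and passed).

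Several of these low genes have near-identical copies, between which counting may split reads. Of the 71 genes, 15 share at least 50% of their 100-base windows with other genes, and 4 of these 15 were tested: HIST2H4B, HIST1H2AI, HIST1H4J and HIST1H4K. The pair HIST1H4J and HIST1H4K summed to 3.97 and 4.10 CPM in shGREM1 cells, against 2.72 and 2.40 CPM in shControl cells. Summed with its copy HIST2H4A, HIST2H4B came to 1.16 and 4.29 CPM in shGREM1 cells and 1.17 and 1.94 CPM in shControl cells. The first pair kept the groups apart, while in the second shGREM1-1 stayed at the level of shControl-1.

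**Figure D2:**
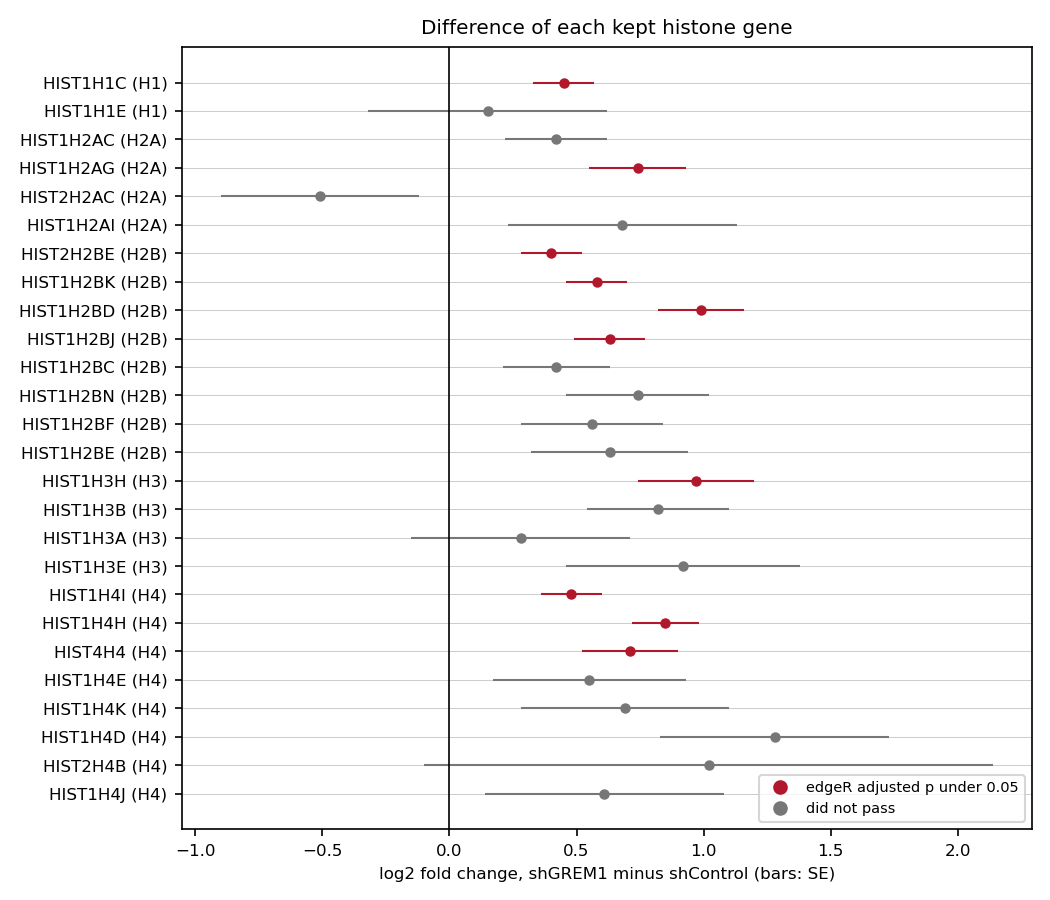
Log2 fold change of shGREM1 over shControl for the 26 tested histone genes by class, with bars for the SE and red for the 10 genes with an edgeR adjusted p under 0.05. All points but that of HIST2H2AC lie above 0, and the 10 red points lie between 0.40 and 0.99.

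Summed over all genes of a class, tested or not, every class was higher in both shGREM1 libraries than in both shControl libraries. All 71 genes together came to 1010 and 890 CPM in shGREM1 cells, against 650 and 663 CPM in shControl cells, a ratio of means of 1.44. H1 summed to 261 and 287 CPM in shGREM1 cells and 185 and 218 CPM in shControl cells, a ratio of 1.36. H2A summed to 151 and 98.2 CPM in shGREM1 cells and 88.9 and 91.9 CPM in shControl cells, a ratio of 1.38, and shGREM1-2 exceeded the higher shControl library by little. H2B summed to 447 and 363 CPM in shGREM1 cells and 285 and 265 CPM in shControl cells, a ratio of 1.47. H3 summed to 24.2 and 20.1 CPM in shGREM1 cells and 13.6 and 11.2 CPM in shControl cells, a ratio of 1.78. H4 was the tightest class, with 122 and 121 CPM in shGREM1 cells and 78.0 and 77.2 CPM in shControl cells, a ratio of 1.57. Differences between the classes were not tested.

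These sums rest on few genes. They are sums of the RNA that was counted, and how much histone RNA without a poly(A) tail they hold is not known. The 10 genes of highest count held 92.7% of the 51071 counts of the family, and H2B and H1 held 42.4% and 29.6% of them. Without HIST1H1C the sum was 747 and 603 CPM in shGREM1 cells, against 467 and 447 CPM in shControl cells. The 45 genes that the filter removed summed to 5.60 ± 0.882 CPM in shGREM1 cells and 4.21 ± 0.274 CPM in shControl cells (SD, n = 2 each).

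**Figure D3:**
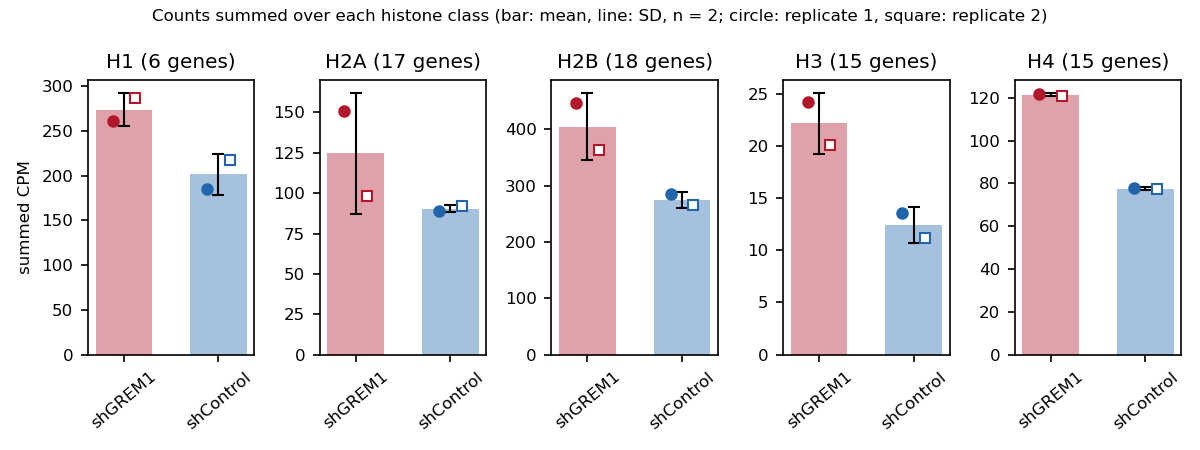
Summed CPM of all genes of each histone class, with bars for the mean, lines for the SD (n = 2) and points for the libraries, shGREM1 left of shControl. Every class has both shGREM1 points above both shControl points, and H2A has the widest gap between its shGREM1 libraries, at 151 and 98.2 CPM.

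By position, genes lay on chromosomes 1, 6 and 12. The HIST1 cluster on chromosome 6 holds 55 genes in 3 stretches separated by more than 300 kb. In the first stretch (25726132 to 26285638, 34 genes) 3 of 13 tested genes rose, namely HIST1H1C, HIST1H2BD and HIST1H4H, and the median log2 difference was 0.56. In the second, of 5 genes within 21.6 kb (27125897 to 27147515), all 4 tested genes rose: HIST1H2BJ, HIST1H2AG, HIST1H4I and HIST1H2BK. In the third (27807444 to 27893843, 16 genes) HIST1H3H rose of 5 tested, with a median of 0.69. Over all tested genes 3.57% rose. The count for the second stretch was noticed after the values were seen and has no test of its own.

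Summed, the HIST1 genes came to 821 and 734 CPM in shGREM1 cells, against 519 and 539 CPM in shControl cells. The 11 genes of the HIST2 cluster on chromosome 1 (149782689 to 149887916) came to 170 and 143 CPM in shGREM1 cells, against 123 and 116 CPM in shControl cells, nearly all of it HIST2H2BE, the gene that rose of 3 tested. HIST2H3PS2, which lies apart on chromosome 1, had no counts. The 3 HIST3 genes had 13 counts in all, every one of HIST3H3.

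Histone genes on opposite strands can stand head to head, with starts under 1000 bases apart. There were 12 such pairs, 11 of an H2A with an H2B gene and 1 of the H3 gene HIST1H3J with HIST1H2BO, which also pairs with HIST1H2AM. HIST1H2BJ and HIST1H2AG, with starts 292 bases apart, both rose, by 0.63 and 0.74 on the log2 scale. HIST1H2BC and HIST1H2AC, 219 bases apart, both differed by 0.42, and neither passed. HIST2H2BE and HIST2H2AC, 323 bases apart, had differences of opposite sign, 0.40 and -0.51, of which the first alone passed. HIST1H2BK rose, while HIST1H2AH, 331 bases away, had 11 counts over the 4 libraries.

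Genes inside the clusters that do not encode histones had differences on either side of 0. These were the 20 protein-coding genes whose whole span lies between the first and last histone gene of a cluster. Such a gene can lie in the long gaps between the HIST1 stretches, so it need not stand near a histone gene. Of the 20, 14 were tested, 0 rose and 0 fell with edgeR, DESeq2 or limma-voom. With edgeR 3.57% of all tested genes rose and 4.12% fell, so 0 of 14 is near these shares. At an unadjusted p under 0.05, edgeR counted 2 higher and 3 lower, against 11.1% and 12.1% of all tested genes. Their median log2 difference was -0.03, with 5 above 0 and 9 below. HMGN4, a nucleosome-binding protein gene, had 52.3 and 49.0 CPM in shGREM1 cells and 52.5 and 58.0 CPM in shControl cells (-0.13, edgeR adjusted p = 0.57). TRIM38, a ubiquitin ligase gene, had 34.3 and 28.98 CPM in shGREM1 cells and 37.96 and 42.9 CPM in shControl cells (-0.35, adjusted p = 0.127). Without shGREM1-1, TRIM38 fell (-0.48, adjusted p = 0.0352) and ZNF184 rose (0.67, adjusted p = 0.048). The largest positive difference was that of AL031777.3 (0.78, adjusted p = 0.243), named after its value was seen. Its exons hold 100% of the exon bases of HIST1H3D and 98% of those of HIST1H2AD on the same strand, so its counts may include reads of these histone genes. Without it the median stayed at -0.03, with 4 above 0 and 9 below. Differences between neighbours and histone genes were not tested as such.

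The genes removed by the count filter make up most of the family. Of 45, 20 had no count in any library: HIST1H1A, HIST1H1T, HIST1H2AA, HIST1H2AD, HIST1H2AK, HIST1H2AL, HIST1H2AM, HIST3H2A, HIST1H2BA, HIST1H2BI, HIST3H2BB, HIST1H3C, HIST1H3D, HIST1H3F, HIST1H3G, HIST1H3I, HIST1H3J, HIST2H3PS2, HIST1H4F and HIST1H4L. A count of 0 allows up to 3 counts, or 0.183 and 0.187 CPM in shGREM1 libraries and 0.194 CPM in each shControl library, for counting error only. The other 25 had between 1 and 39 counts over the 4 libraries. They were HIST1H1B, HIST1H1D, HIST1H2AB, HIST1H2AE, HIST1H2AH, HIST1H2AJ, HIST2H2AA3, HIST2H2AA4, HIST2H2AB, HIST1H2BB, HIST1H2BG, HIST1H2BH, HIST1H2BL, HIST1H2BM, HIST1H2BO, HIST2H2BF, HIST2H3A, HIST2H3C, HIST2H3D, HIST3H3, HIST1H4A, HIST1H4B, HIST1H4C, HIST1H4G and HIST2H4A. No difference between the groups was tested for these 45.

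Whether a gene was counted went with what is annotated for it. Of the 23 genes with a poly(A) signal at a transcript end, 14 were kept and 2 had no count. Of the 14 with untranslated sequence but no such signal, 5 were kept and 3 had no count, and of the 34 with coding sequence alone, 7 were kept and 15 had no count. Length differs between these sets as given above, and its part in the counts was not tested. In addition, 5 genes have at least 80% of their exon bases inside exons of other genes, and all 5 had 0 counts: HIST1H2AD, HIST1H3D, HIST1H2AK, HIST1H2AM and HIST2H3PS2. The overlap of HIST1H2AK, with HIST1H2BN, is on the opposite strand only. HIST1H3J, which overlaps HIST1H2AM, had no counts itself. The part of overlap in these counts was not tested.

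Rises were found in all of these sets. With a poly(A) signal, 6 of 14 tested genes rose, with untranslated sequence but no signal 2 of 5, and with coding sequence alone 2 of 7. Over all tested genes 3.57% rose and 4.12% fell. The median log2 differences were 0.69, 0.56 and 0.58. Genes with a signal summed to 498 and 385 CPM in shGREM1 cells, against 303 and 294 CPM in shControl cells. Genes with coding sequence alone, led by HIST1H1C and HIST1H2BK, summed to 425 and 428 CPM in shGREM1 cells, against 292 and 314 CPM in shControl cells. In the first set shGREM1-1 stood above shGREM1-2, and in the second the shGREM1 libraries were close. Of 17 tested genes with the stem-loop pattern 7 rose, and of 9 without it 3 rose. Calls also went with level: 10 of 18 tested histone genes at a mean of 2 CPM or more rose, and 0 of 8 below it. The part of level in the counts by set was not tested.

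**Figure D4:**
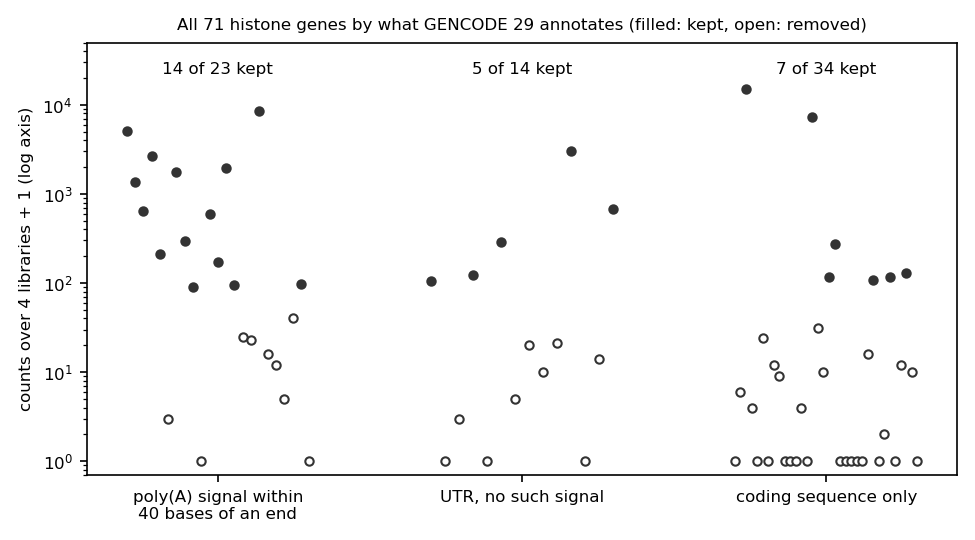
Counts over the 4 libraries, plus 1, on a log axis for all 71 histone genes by annotation, filled where the gene was tested. Tested genes number 14 of 23 with a poly(A) signal near an end, 5 of 14 with untranslated sequence alone and 7 of 34 with coding sequence only, and the highest point is HIST1H1C in the last set.

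Genes that act on histone genes and their RNA were read in the same fit. Of 14 genes of histone transcription, all were tested and 0 rose or fell with edgeR, DESeq2 or limma-voom. With edgeR 3.57% of all tested genes rose and 4.12% fell, so 0 of 14 is near these shares. At an unadjusted edgeR p under 0.05, 3 were higher and 1 was lower, against 11.1% and 12.1% of all tested genes. Those 3 were CASP8AP2 (0.36, edgeR adjusted p = 0.124), POU2F1 (0.34, adjusted p = 0.125) and E2F1 (0.31, adjusted p = 0.142), and the lower 1 was NFYC. Over the 14 genes the median log2 difference was 0.10, with 9 above 0 and 5 below. YY1, a zinc finger factor, had 139 and 139 CPM in shGREM1 cells and 125 and 126 CPM in shControl cells (0.14, adjusted p = 0.446). NFYC, a subunit of the CCAAT-binding factor NF-Y, had 84.2 and 80.5 CPM in shGREM1 cells and 102 and 104 CPM in shControl cells, lower in both, without passing (-0.32, adjusted p = 0.0819). NPAT, the coactivator of histone genes, differed by 0.17 (adjusted p = 0.461).

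In the list of histone 3′ end processing, 20 of 20 genes were tested and 0 passed by edgeR, DESeq2 or limma-voom. With edgeR 3.57% of all tested genes rose and 4.12% fell, so 0 of 20 is near these shares. At an unadjusted edgeR p under 0.05, 1 was higher and 4 were lower, against 11.1% and 12.1% of all tested genes. The 1 was CASP8AP2, which is also in the transcription list. Those 4 were LSM10 (-0.39), CSTF2 (-0.37), NCBP2 (-0.28) and SNRPB (-0.27), with edgeR adjusted p from 0.0779 to 0.165. Differences were below 0 in 16 of the 20 and above 0 in 4, with a median of -0.09. In 9 genes both shGREM1 libraries lay below both shControl libraries and in 3 above, against 26.6% and 27.0% of all tested genes. SLBP had 49.4 and 56.5 CPM in shGREM1 cells and 58.3 and 49.5 CPM in shControl cells, with the groups overlapping (-0.03, adjusted p = 0.935). CPSF1, a subunit of the cleavage and polyadenylation complex, differed by -0.00 (adjusted p = 0.998), and SRRT, which links the cap to RNA processing, by -0.16 (adjusted p = 0.442).

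Genes of S phase, in which histone genes are normally transcribed, were also tested in full. Of 21, 0 passed by edgeR, DESeq2 or limma-voom. With edgeR 3.57% of all tested genes rose and 4.12% fell, so 0 of 21 is near these shares. At an unadjusted edgeR p under 0.05, 5 were higher and 0 lower, against 11.1% and 12.1% of all tested genes. The differences were above 0 in 20 of 21, against 50.6% of all tested genes, but small, with a median of 0.16. In 12 genes both shGREM1 libraries lay above both shControl libraries and in 0 below, against 27.0% and 26.6% of all tested genes. PCNA, the DNA polymerase clamp, had 330.1 and 333 CPM in shGREM1 cells and 308 and 283 CPM in shControl cells (0.17, adjusted p = 0.378). DNMT1, the maintenance DNA methyltransferase, had 220.2 and 230 CPM in shGREM1 cells and 243 and 214 CPM in shControl cells (-0.02, adjusted p = 0.937). CDC45, part of the replicative helicase, came nearest to a call (0.37, adjusted p = 0.0644) and passed under several alternatives, total count scaling among them (0.39, adjusted p = 0.0499). The 21 genes summed to 2460 and 2560 CPM in shGREM1 cells and 2450 and 2090 CPM in shControl cells. The share of cells in S phase was not measured, and its part in the histone values was not tested.

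Histone variants listed as independent of replication moved in both directions. Of 17 listed genes 11 were tested, 2 rose and 1 fell, against 3.57% and 4.12% of all tested genes, with a median of 0.03. CENPA, the H3 variant of centromeres, rose to 64.6 and 63.9 CPM in shGREM1 cells, against 45.4 and 39.5 CPM in shControl cells (0.60 ± 0.12, edgeR adjusted p = 0.00679). H2AFY2, which encodes macroH2A2, rose to 59.9 and 55.4 CPM in shGREM1 cells, against 40.6 and 40.2 CPM in shControl cells (0.51 ± 0.12, adjusted p = 0.0146). H3F3B, which encodes H3.3, fell to 539 and 544 CPM in shGREM1 cells, against 725 and 738 CPM in shControl cells (-0.43 ± 0.11, adjusted p = 0.0201). H3F3A, whose product is the same H3.3 protein, had a difference of opposite sign that did not pass (0.32, adjusted p = 0.0805). The linker variants H1F0 (-0.19, adjusted p = 0.329) and H1FX (-0.26, adjusted p = 0.156) did not pass, both below 0 while HIST1H1C rose. The calls were lost without shControl-2 for CENPA (adjusted p = 0.0655), H2AFY2 (0.0685) and H3F3B (0.152), and without shControl-1 for H2AFY2 (0.0721) and H3F3B (0.142).

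Of 25 histone chaperone genes, all tested, 1 rose and 0 fell, against 3.57% and 4.12% of all tested genes. Their differences were above 0 in 20 of the 25, against 50.6% of all tested genes, with a median of 0.12. In 13 genes both shGREM1 libraries lay above both shControl libraries and in 3 below, against 27.0% and 26.6% of all tested genes. NAP1L1, a chaperone of H2A and H2B, had 629.9 and 559 CPM in shGREM1 cells, against 415 and 426 CPM in shControl cells (0.50 ± 0.11, edgeR adjusted p = 0.0118). Without shControl-1 its adjusted p was 0.136, and without shControl-2 it was 0.0813. SET (0.04, adjusted p = 0.878) and NASP, a chaperone of H1 and H3 (0.12, adjusted p = 0.543), did not pass. At an unadjusted p under 0.05, edgeR counted 6 of the 25 chaperone genes higher and 0 lower, against 11.1% and 12.1% of all tested genes, and DESeq2 and limma-voom also found 0 that fell.

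**Figure D5:**
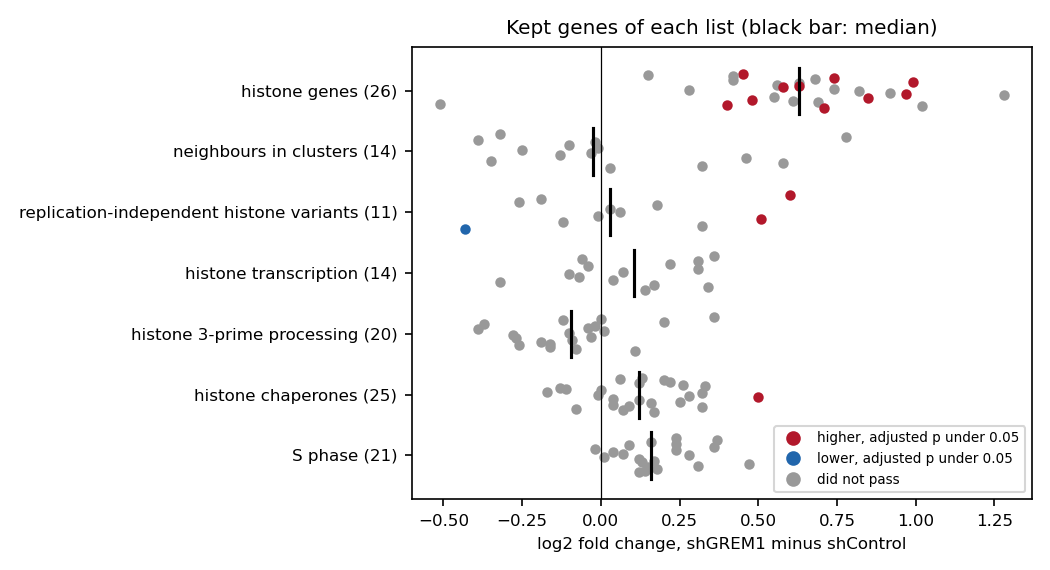
Log2 fold change of shGREM1 over shControl for tested histone genes, for other genes inside the clusters and for the lists of related genes, with a black bar for the median. The histone genes have a median of 0.63, and the medians of the other rows lie between -0.09 and 0.16.

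The direction did not rest on any library alone. On log2(CPM + 0.1) the median over the 26 genes was 0.70 for shGREM1-1 and 0.57 for shGREM1-2, each minus the mean of the shControl libraries. Against shControl-1 the mean of the shGREM1 libraries had a median of 0.60, and against shControl-2 it had 0.63. Within groups the medians were 0.16 for shGREM1-1 minus shGREM1-2 and 0.04 for shControl-1 minus shControl-2. The number of calls was less steady, and without a shControl library calls over all genes also became fewer. Without shControl-1 4 genes rose and without shControl-2 3 rose, and HIST1H4H passed in all 16 alternative settings, leaving out a library included.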

How the data were processed

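RNA-seq was analysed in 4 libraries. The authors deposited raw read counts per gene; HISAT2 2.0.5, StringTie 1.3.3b and DESeq2 are named per the submitters' processing notes, which do not say what counted the reads or with which strand setting. The notes name mm10, but all 58735 genes matched GENCODE 29 (GRCh38). Columns were assigned to libraries from their abbreviations alone.

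The test was edgeR 4.0.16 in R 4.3.3: filterByExpr (minimum count 10, minimum total 15), TMM scaling (factors 0.987 to 1.01), a robust quasi-likelihood fit on group, and Benjamini-Hochberg adjustment over 18442 genes at 0.05. CPM is scaled by TMM, and log2 differences are shGREM1 minus shControl. The SE of an edgeR difference was derived as its absolute value divided by the square root of the quasi-likelihood F value. Alternatives included DESeq2 1.42.0, limma-voom (limma 3.58.1) and leaving out each library. All kept histone genes are named. Those that passed, and the 2 of highest mean CPM in each class, have values in every library. Of other lists, those that passed and the 2 of highest mean CPM that did not are named. NPAT, SLBP, CDC45, ZNF184, AL031777.3, H3F3A and the pseudogenes were added after values were seen. So were the other genes of histone transcription and 3′ end processing with an unadjusted edgeR p under 0.05. The result of 1 marker gene withheld for evaluation is not reported here. The histone genes and lists were chosen with earlier results of these data known.

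Libraries of a group differed by a median of 0.194 in shGREM1 and 0.173 in shControl (absolute log2), at a biological coefficient of variation of 11.4%. The fit was tested on simulated data for the same contrast and 18442 genes, where it found 20.9% of 67 true changes of 1.5-fold, 62.7% of 67 true 2-fold changes and 89.4% of 66 true 4-fold changes, with 0.86% of calls false. Each simulated gene had the spread that the fit gives to genes of its level, and none of its own. The share of false calls in the real data may therefore differ. Figures were drawn with matplotlib 3.10.9.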

Additional observations from a re-analysis of the deposited data

How the results depend on the processing

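The median log2 difference of the tested histone genes lay between 0.56 and 0.70 in every alternative, and no call changed sign. The number that rose, 10, was 8 to 11 under the other scalings, filters, tools and corrections and 3 to 12 with a library left out, and 0 fell in each. A fit without 1 library takes its spread from the other group alone, so a call gained there is no evidence of a change. HIST2H2BE passed in 10 of the 16 alternatives, HIST4H4 in 12, HIST1H2AG in 13, HIST1H3H and HIST1H4I in 14, and HIST1H1C, HIST1H2BD, HIST1H2BJ and HIST1H2BK in 15. HIST1H2AC passed in 3, without a count filter (adjusted p = 0.0132), without shGREM1-2 and with the replicate block given below.

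Over all genes, 659 rose and 759 fell. With a library left out, 266 (without shControl-1) to 998 (without shGREM1-1) rose and 382 to 1112 fell, and without a count filter 1142 fell. Upper-quartile scaling gave 793 and 631. With a library left out, 0 to 1 genes between the histone genes rose and 0 to 1 fell, and 0 to 6 genes of the related lists rose and 0 to 1 fell, against 3 and 1. The related lists gave 6 that rose with a correction for length and GC content, which was chosen after seeing the data.

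With the replicate number as a block, 1101 of all genes rose and 1273 fell, 11 histone genes rose, HIST1H2AC among them (adjusted p = 0.0178), and 0 fell, and 5 genes of the related lists rose and 2 fell. Libraries with the same number did not deviate together over all genes (correlation -0.00703), although they did over the tested histone genes (0.432); with 2 numbers and no word in the labels on pairing, the numbers were not taken to pair them. The cause of these changes was not tested.

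At this depth 45 of 71 genes had too few counts for the test. In simulated counts genes that changed 1.5-fold were mostly missed. Those genes were drawn at any level, so the share missed is not that of the tested histone genes.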

Other observations

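The table also holds 19 histone rows that are not protein coding, of which 2 passed the count filter, both pseudogenes of the HIST2 cluster. HIST2H2BC had 15.3 and 14.6 CPM in shGREM1 cells and 17.5 and 17.7 CPM in shControl cells, lower in both shGREM1 libraries without passing (-0.23, edgeR adjusted p = 0.422). HIST2H2BD had 9.27 and 9.14 CPM in shGREM1 cells and 7.71 and 5.51 CPM in shControl cells (0.48, edgeR adjusted p = 0.233). Within a single cluster the coding gene HIST2H2BE and the pseudogene HIST2H2BD were thus higher in shGREM1 libraries and HIST2H2BC and HIST2H2AC lower, and of these 4 only HIST2H2BE passed.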
